A study of Mus musculus with 24 samples.

Results

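Wild-type mouse embryonic fibroblasts treated with KL001 and Dexa were compared with and without depletion of Cop1. The comparison took the 3 libraries of siCop1 KL001 with Dexa against the 3 libraries of siCTRL KL001 with Dexa, chosen by their labels, which is 6 of the 24 libraries of the series. Both groups carried KL001 and Dexa, so the siRNA was the only labelled difference between them. In the whole series each siRNA was combined with DMSO or KL001, each without and with Dexa, giving 8 groups of 3 libraries. The names are read here as a non-targeting siRNA (siCTRL) and an siRNA against Cop1 (siCop1), and the name Dexa is left unexpanded, as in the labels. The sources used here give no dose, exposure time, siRNA sequence or origin of the fibroblasts. The labels do not say whether the 3 replicates came from separate cultures, so the p-values measure only the spread between these libraries, which may be technical.

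Cop1 selects the substrates of a cullin 4 (CRL4) ubiquitin ligase, in which Ddb1 and a Cul4 scaffold hold the catalytic part and Det1 assists. The ligase marks transcription factors such as Jun, Ets1, Ets2, Etv4 and Etv5 for degradation. For some substrates a Tribbles protein serves as adaptor. The known action of the ligase is thus on protein rather than on mRNA. KL001 is a small molecule that stabilises Cry1 and Cry2, the cryptochromes that repress circadian transcription. The title of the series names an inhibition of the assembly of the CRL4-Cop1 complex by cryptochromes. The comparison therefore asks which transcripts change with siCop1 when KL001 and Dexa are both present. The counts measure RNA, so the levels of Cop1 and cryptochrome proteins are not known here. Effects of siCop1 on targets other than Cop1 cannot be told apart from those of Cop1 depletion.

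The targeted transcript was examined first. Cop1, listed under the older symbol Rfwd2, stood at 4.49, 5.11 and 4.97 CPM in the siCop1 libraries and at 27.9, 27.7 and 28.6 CPM in the siCTRL libraries. CPM are counts relative to the library total, corrected for composition but not for transcript length, so levels are not compared between genes. The groups did not overlap, and Rfwd2 was 5.77-fold lower with siCop1 (log2 -2.53, SE 0.07). The adjusted p was 1.2e-20 by the quasi-likelihood test of edgeR, Benjamini-Hochberg adjusted over all genes tested, which is the source of every adjusted p from edgeR given here.

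The 6 libraries held 21409988 to 25634835 counts, with 6.20% to 6.92% of them in the 10 most abundant genes. The first principal component of log2 CPM carried 80.4% of the variance of these libraries and separated the siRNAs. All 13 fibroblast markers had counts, with a summed level of 41616 to 43492 CPM with siCTRL and 36453 to 38341 CPM with siCop1. Of these markers 3 fell, 3 rose and 7 did not pass, and without Col1a1 and Col1a2, which both fell, the other 11 summed to 9965 to 10389 CPM with siCTRL and 10055 to 10287 CPM with siCop1. Markers of other cell types were low. The summed level of 13 heart muscle markers was 9.67 to 36.5 CPM with siCTRL, where replicate 2 held the 36.5, and 5.95 to 6.42 CPM with siCop1, with Myl7 at 0. Without Cox6a2, the 1 member that passed the test, the sums were 4.36 to 29.1 CPM and 4.02 to 4.37 CPM and overlapped. In bulk RNA, fewer cells of a type and less RNA per cell cannot be told apart.

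Of 14772 genes tested, 4441 changed at an adjusted p below 0.05, which is 30.1% of the genes tested. Of these, 2031 were higher with siCop1 (13.7%) and 2410 were lower (16.3%). Most changes were small. The median absolute log2 change of the changed genes was 0.25, 3718 of them changed by less than 1.5-fold, and 286 changed at least 2-fold (1.94%), 156 upwards and 130 downwards. The median log2 change over all genes was -0.002. All libraries of a group lay above all libraries of the other for 4312 of the changed genes, against 6686 of all genes tested (45.3%).

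**Figure D1:**
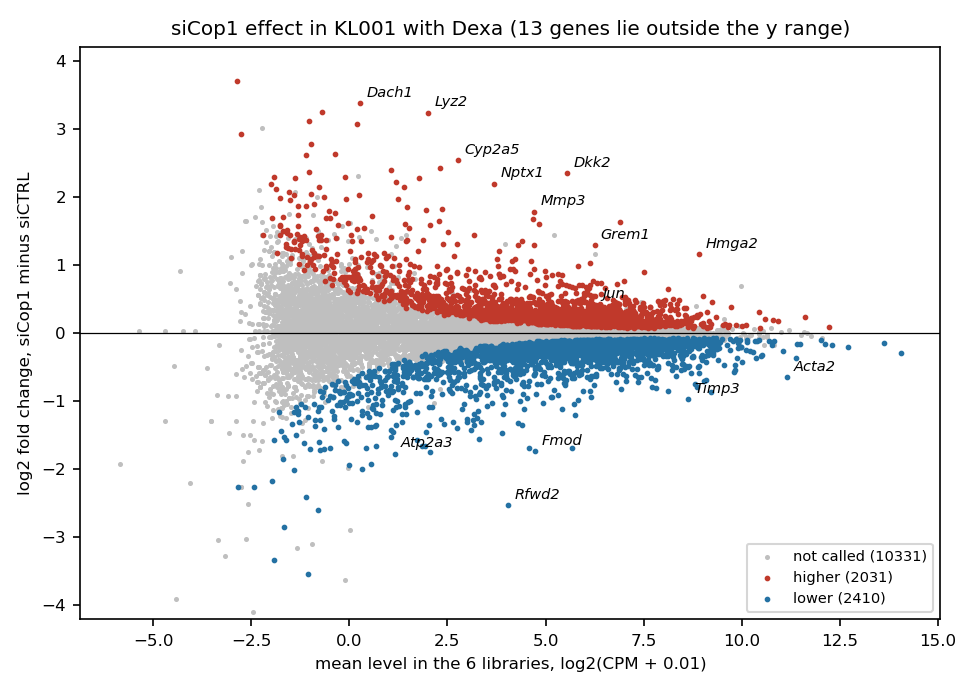
Log2 fold change of siCop1 against siCTRL in KL001 with Dexa (y axis) plotted against the mean level of the 6 libraries, log2(CPM + 0.01) (x axis). Each point is a gene, red where higher (2031 genes), blue where lower (2410 genes) and grey where not called, and most coloured points lie close to 0 while Rfwd2 stands at -2.53.

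Among genes with a mean of at least 1 CPM and no overlap between the groups, the largest rises included transcription, transport and signalling genes. Dach1, a transcriptional cofactor of limb and eye development, stood at 2.24, 2.09 and 2.28 CPM with siCop1 and at 0.199, 0.132 and 0.288 CPM with siCTRL (log2 3.37, SE 0.27, adjusted p = 5e-11). Dkk2, a secreted modulator of Wnt receptors, stood at 85.3, 76.3 and 72.8 CPM with siCop1 and at 16.2, 14.4 and 15.3 CPM with siCTRL. Its log2 change of 2.35 (SE 0.06, adjusted p = 1.6e-21) corresponds to 5.10-fold. Nptx1, a secreted neuronal pentraxin, averaged 21.3 ± 1.6 CPM against 4.64 ± 0.941 CPM (SD, n = 3), a log2 change of 2.19. Slc14a1, a urea transporter, rose by 3.08 on the log2 scale. Clic5, which links actin to the membrane, rose by 2.42, and Ptpn22, a phosphatase best known from lymphocytes, rose by 2.27.

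The other 4 genes of the 10 largest rises, Lyz2, Cyp2a5, Pigr and Adh1, were uneven between replicates. Lyz2, a lysozyme, stood at 11.3, 6.31 and 4.09 CPM with siCop1 and at 0.598, 1.4 and 0.329 CPM with siCTRL (log2 3.24, SE 0.80, adjusted p = 0.0048), and its log2 change was 3.94 without siCTRL replicate 2. Cyp2a5, a cytochrome P450, stood at 21.4, 9.40 and 4.18 CPM against 3.23, 2.02 and 0.741 CPM, and replicate 1 was the highest in both groups. Without siCop1 replicate 1 its log2 change went from 2.54 to 1.78 and its adjusted p from 0.027 to 0.17. Its adjusted p was 0.070 without siCTRL replicate 2 and 0.11 without siCTRL replicate 3. Pigr, the receptor that carries immunoglobulins across epithelia, rose by 2.39, and Adh1, an alcohol dehydrogenase, by 2.22. Pigr lost its call when any library but siCTRL replicate 2 was left out (adjusted p 0.061 to 0.15), its log2 change being 4.20 without siCTRL replicate 2, and Adh1 when siCop1 replicate 1 or siCTRL replicate 3 was left out (0.092 and 0.077). The 12 markers of simple and airway epithelium, Pigr among them, summed to 34.4 to 44.4 CPM in the siCop1 libraries and 23.8 to 34.8 CPM in the siCTRL libraries, with Nkx2-1 at 0, and without Pigr to 30.7 to 40.7 CPM against 23.8 to 33.2 CPM. The 9 squamous epithelium markers, none at 0, summed to 42.3, 20.8 and 17.2 CPM in siCop1 replicates 1 to 3 and 17.7, 27.0 and 9.42 CPM in siCTRL replicates 1 to 3, so that siCop1 replicate 1 was the highest of its group for these markers as for Cyp2a5. The part of epithelial cells in these changes was not tested. The 13 macrophage markers, Lyz2 among them, summed to 12.8 to 20.1 CPM against 4.07 to 6.45 CPM. Without Lyz2, C3ar1 and Cd68, which all rose, the siCop1 libraries summed to 1.04 to 1.38 CPM over the other 10, against 1.12 to 1.76 CPM in the siCTRL libraries. Lyz2 and Cyp2a5 have closely related copies, and the sources used here do not say how reads common to such copies were assigned.

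The 10 largest falls, chosen by the same rule and with Rfwd2 at their head, included matrix, retinoid and natriuretic peptide genes. Fmod, which encodes the collagen-binding proteoglycan fibromodulin, stood at 12.5, 12.1 and 12.5 CPM with siCop1 and at 43.1, 39.1 and 41.2 CPM with siCTRL (log2 -1.74, SE 0.05, adjusted p = 2.8e-20). Npr3, the clearance receptor for natriuretic peptides, stood at 23.5, 25.8 and 23.5 CPM against 85.8, 77.3 and 72.7 CPM. Cyp26b1, which degrades retinoic acid, stood at 10.2, 10.9 and 12.8 CPM against 34.5, 36.3 and 38.4 CPM. The rule of choice requires that the groups do not overlap, so this is not a result for these genes. Both Npr3 and Cyp26b1 fell by 1.69 on the log2 scale. Atp2a3, a calcium pump of the endoplasmic reticulum, fell by 1.77, Sspo, the gene of SCO-spondin, by 1.65, AU021092 by 1.99 and Map3k7cl by 1.69.

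Cox6a2 and Acta1 completed the 10 largest falls. Cox6a2, the striated muscle isoform of a cytochrome c oxidase subunit, stood at 1.73, 1.94 and 2.05 CPM with siCop1 and 6.38, 7.46 and 5.31 CPM with siCTRL (log2 -1.74). Acta1, skeletal muscle actin, stood at 0.906, 0.774 and 0.604 CPM against 2.59, 2.15 and 2.55 CPM (log2 -1.66, adjusted p = 0.012). The 9 skeletal muscle markers, Acta1 among them, summed to 2.24 to 2.55 CPM in the siCop1 libraries and 3.63 to 5.35 CPM in the siCTRL libraries, with Myod1, Myog and Myh8 at 0. Without Acta1 the other 8 summed to 1.34 to 1.78 CPM and 1.04 to 3.20 CPM, which overlap. Actin transcripts resemble each other, so the split of reads between Acta1, Acta2 and Actg2 is uncertain.

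**Figure D2:**
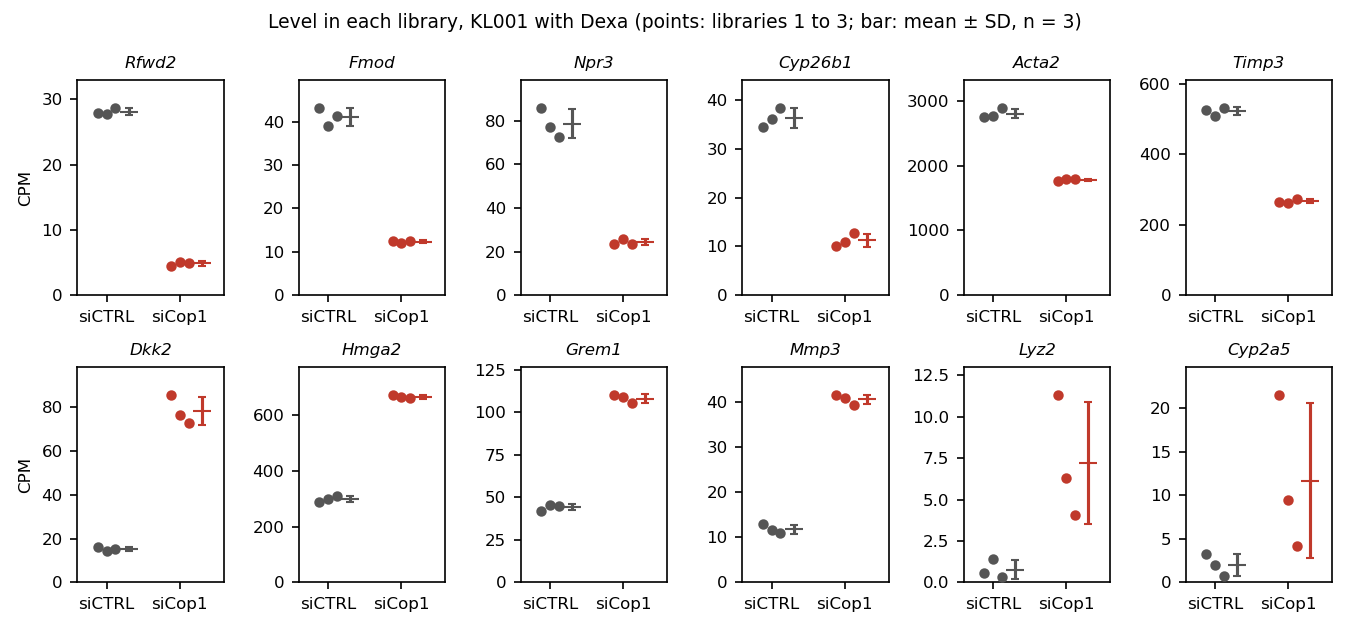
Level of 12 genes in each library of siCTRL and siCop1 in KL001 with Dexa, in CPM (y axis, from 0), with the mean ± SD (n = 3) beside the points. Rfwd2, Fmod, Npr3, Cyp26b1, Acta2 and Timp3 are lower in all siCop1 libraries, Dkk2, Hmga2, Grem1 and Mmp3 are higher, and Lyz2 and Cyp2a5 spread widely within siCop1.

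Matrix-degrading enzymes and their inhibitors formed the list with the largest share of rises. Some of these genes are textbook targets of AP-1, the dimer of Fos and Jun proteins, so the promoters that held the AP-1 motif TGANTCA are shown. The 250 bases before each annotated start were searched on both strands, where this motif reads alike, in the RefSeq promoter table of GRCm38.p6. Of 22 list members tested, 14 had a promoter in the table, which is too few for a share over the list. The motif was found in Mmp3 at -46, Mmp10 at -63, Mmp13 at -35 and Plaur at -69 relative to the start, and in 6.75% of all 32851 promoters of that length in the table. The 150 bases before the start, all on the plus strand, lie at chr9:7445672-7445821, chr9:7502192-7502341, chr9:7272364-7272513 and chr7:24462333-24462482, and capitals mark the motif, whose letters TGA also begin the ATF4-type motif shown further on. The Mmp10 sequence also holds a match to that ATF4-type motif, TGATGTAA, left in lower case. A match describes the sequence and not a bound site.
Mmp3: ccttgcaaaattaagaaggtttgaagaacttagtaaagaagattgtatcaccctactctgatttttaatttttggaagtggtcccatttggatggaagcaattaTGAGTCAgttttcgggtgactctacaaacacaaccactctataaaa
Mmp10: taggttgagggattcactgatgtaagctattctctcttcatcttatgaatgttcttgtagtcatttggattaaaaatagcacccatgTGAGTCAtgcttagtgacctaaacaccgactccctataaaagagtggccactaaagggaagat
Mmp13: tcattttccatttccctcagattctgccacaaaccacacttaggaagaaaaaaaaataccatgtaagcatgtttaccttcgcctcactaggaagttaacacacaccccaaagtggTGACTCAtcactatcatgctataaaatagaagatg
Plaur: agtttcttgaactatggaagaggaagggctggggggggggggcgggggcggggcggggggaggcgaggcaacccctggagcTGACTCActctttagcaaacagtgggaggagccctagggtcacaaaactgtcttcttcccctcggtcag

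Of the 22 tested proteases and inhibitors, 13 rose, 4 fell and 5 did not pass, with a median log2 change of 0.29. The share of changed genes was 77.3% against 30.1% over all genes. Mmp3, stromelysin 1, stood at 41.4, 40.8 and 39.3 CPM with siCop1 and at 12.8, 11.5 and 10.9 CPM with siCTRL. This 3.44-fold rise (log2 1.78, SE 0.10, adjusted p = 1.4e-11) left the groups far apart. Plaur, the urokinase receptor, rose by 0.38 and Plat, tissue plasminogen activator, by 0.49. Mmp14, a membrane-bound collagenase, rose from 736 ± 7.89 to 961 ± 17.1 CPM (SD, n = 3). The inhibitor Timp3 fell from 527, 508 and 531 CPM to 263, 262 and 273 CPM (log2 -0.97, SE 0.05, adjusted p = 1.3e-13), and Serpine2, an inhibitor of plasminogen activators and thrombin, fell by 0.63. Plaur, Plat, Mmp14 and Serpine2 were picked after their values were seen.

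Mmp10 and Mmp13 rested on few reads. Mmp10, stromelysin 2, had 17 counts over the siCop1 libraries and 2 over the siCTRL libraries, a ratio of 8.70 with a 95% Poisson interval of 2.06 to 77.6 that covers counting error only. Its adjusted p of 0.0052 became 0.078 without siCop1 replicate 3. Mmp13, collagenase 3, stood at 0.259, 0.619 and 0.744 CPM against 0.160, 0.176 and 0.0411 CPM (log2 2.07, adjusted p = 0.0073), and its adjusted p was 0.051 without siCTRL replicate 3.

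AP-1 transcripts moved in both directions. Of 9 tested members of the Fos and Jun family, 3 rose, 4 fell and 2 did not pass. The share of changed genes was 77.8% against 30.1% over all genes. Fosl1, the gene of Fra-1, stood at 26.5, 25.0 and 24.9 CPM with siCop1 and 12, 12.3 and 11.8 CPM with siCTRL (log2 1.08, SE 0.07, adjusted p = 9.9e-14). Fosb rose by 0.72, and Jun rose from 67.0, 65.2 and 67.0 CPM to 93.0, 88.3 and 84.7 CPM (log2 0.42, SE 0.04, adjusted p = 1.2e-09). Fos, by contrast, stood at 1.29, 2.05 and 2.19 CPM against 3.43, 3.47 and 4.32 CPM (log2 -1.02, SE 0.18), and Junb fell by 0.63. For each of these 5 genes the libraries of the groups did not overlap. The same held for 4312 of the 4441 changed genes and for 45.3% of all genes tested.

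Transcripts of described Cop1 substrates showed no common direction, with 2 of 10 higher, 2 lower and 6 not passing. The share of changed genes was 40% against 30.1% over all genes. Besides Jun, Acaca, the first enzyme of fatty acid synthesis, was higher (log2 0.16), a call lost without siCop1 replicate 3 and without siCTRL replicate 1 or 3 (adjusted p 0.069 to 0.11). Ets1 fell by 0.48 and Etv5, an ETS factor downstream of fibroblast growth factor signals, by 0.30 (adjusted p = 0.001). Etv4 (log2 -0.09, SE 0.06, adjusted p = 0.30) and Ets2 (-0.04, SE 0.04, adjusted p = 0.50) did not pass. Among 12 genes of the ligase and its adaptors, Rfwd2, Trib3 and Ddb1 were lower and 9 did not pass, with 5 changed in a fit of only the compared groups. The share of changed genes, with the siRNA target Rfwd2 among them, was 25% against 30.1% over all genes. Trib3, a Tribbles adaptor and a target of Atf4, fell from 166, 163 and 161 CPM to 95.6, 102 and 104 CPM (log2 -0.70, SE 0.04), while Ddb1 fell by 0.10.

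Feedback inhibitors of the ERK pathway and immediate early genes were also split. Of 13 feedback inhibitors tested, 4 rose, 2 fell and 7 did not pass, so that 46.2% changed against 30.1% over all genes. Dusp6, the cytosolic ERK phosphatase, stood at 41.6, 40.4 and 41.6 CPM with siCop1 and 21.9, 21.9 and 21.6 CPM with siCTRL (log2 0.92, SE 0.05, adjusted p = 6.6e-15). Dusp4, at a mean of 1.29 CPM with siCop1 and 0.662 CPM with siCTRL, rose by 0.94 (SE 0.23). The nuclear phosphatase Dusp5 fell by 0.32 and Spry4 by 0.39. Of 14 immediate early genes, 5 rose and 5 fell, so that 71.4% changed against 30.1% over all genes. Phlda1 rose by 0.83 and Myc by 0.25. Egr1, a zinc finger factor induced by growth signals, fell from 43.9, 43.6 and 44.4 CPM to 35.0, 34.1 and 32.7 CPM (log2 -0.37). Arc fell by 0.58. Egr2, at low means of 0.430 CPM with siCop1 and 0.803 CPM with siCTRL, fell by 0.87 with all libraries. Its adjusted p of 0.022 became 0.072 to 0.19 without siCop1 replicate 1 or 3 or siCTRL replicate 3.

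Growth-associated genes of the embryo included both large rises and large falls. Of 18 oncofetal and G1 growth genes, 4 rose, 4 fell and 10 did not pass, so that 44.4% changed against 30.1% over all genes. Hmga2, a chromatin protein of embryonic and tumour cells, stood at 672, 664 and 661 CPM with siCop1 and 290, 298 and 310 CPM with siCTRL (log2 1.15, SE 0.03, adjusted p = 1.1e-21). Hmga1 rose by 1.05, with the reservation that processed copies in the genome can share its reads. The imprinted RNA H19 fell from 41.3 ± 5.36 to 20.3 ± 2.25 CPM (SD, n = 3; log2 -1.03, SE 0.13), and Ccnd1, cyclin D1, fell by 0.22. Dlk1, a fetal Notch-like ligand under 1 CPM in all 6 libraries, fell by 1.34, with an adjusted p of 0.066 without siCop1 replicate 2 and 0.073 without siCTRL replicate 1.

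Every tested contractile or SRF- and YAP-responsive gene that passed was lower. Of 17 such genes, 14 fell, 0 rose and 3 did not pass, with a median log2 change of -0.31. The share of changed genes was 82.4% against 30.1% over all genes and, for falls alone, 16.3%. Acta2, smooth muscle actin, stood at 1765, 1787 and 1800 CPM with siCop1 and 2759, 2761 and 2889 CPM with siCTRL (log2 -0.65, SE 0.03, adjusted p = 1.4e-17). Actg2 fell by 1.12, Cnn1, calponin, by 0.83 and Tagln, transgelin, by 0.71. The secreted YAP targets Cyr61 and Ctgf fell by 0.31 and 0.20.

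Matrix scaffold genes were mostly lower, with 16 of 30 collagen and elastic fibre genes falling, 5 rising and 9 not passing (median log2 -0.16). The share of changed genes was 70% against 30.1% over all genes. Eln, elastin, stood at 6.21, 6.46 and 6.32 CPM against 13.6, 11.7 and 10.8 CPM (log2 -0.93, SE 0.11). Loxl2, a collagen cross-linking enzyme, fell by 1.03 (SE 0.27) and Mfap4, a microfibril protein, by 0.91 (SE 0.19). Both were low, with means of 0.645 CPM against 1.33 CPM for Loxl2 and 1.38 CPM against 2.59 CPM for Mfap4. Among abundant members, Col1a1 fell by 0.29, Fbn1, fibrillin 1, by 0.46 and Postn, periostin, by 0.42, whereas Fbln2, fibulin 2, rose by 0.31. Col15a1 fell by 0.87, with 0.658 CPM in siCTRL replicate 2 inside the siCop1 range, and lost its call without siCTRL replicate 1 or 3 (adjusted p 0.070 and 0.080).

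Signalling genes of the BMP, Wnt and IGF systems changed in ligands, inhibitors and targets. Of 17 BMP and activin genes, 9 fell, 3 rose and 5 did not pass (median log2 -0.37). The share of changed genes was 70.6% against 30.1% over all genes. The secreted BMP antagonist Grem1 stood at 110, 109 and 105 CPM with siCop1 and 42.0, 45.6 and 44.9 CPM with siCTRL (log2 1.29, SE 0.05, adjusted p = 4.9e-18). The BMP-induced genes Id1, Id2, Id3 and Smad6 fell by 0.56, 1.03, 0.44 and 0.45, and the ligand Bmp4 by 0.40. Id2 stood at 9.49, 10.4 and 10.6 CPM against 18.2, 21.2 and 23.3 CPM. The antagonist Nog, under 1 CPM in all 6 libraries, fell by 1.30 and lost its call without siCop1 replicate 1 or 2 or siCTRL replicate 1 (adjusted p 0.050 to 0.054).

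Of 16 Wnt modulators, 3 rose, 6 fell and 7 did not pass, so that 56.25% changed against 30.1% over all genes. Besides Dkk2, the Wnt agonist Rspo1 rose by 0.98, while the ligand Wnt4 fell by 0.90, Dkk3 by 0.81, the secreted antagonist Sfrp2 by 0.74 and the agonist Rspo3 by 0.59. Of 10 IGF system genes, 4 fell and 6 did not pass, a share of changed genes of 40% against 30.1% over all genes. Igfbp3, a binding protein of insulin-like growth factors, stood at 3.84, 3.75 and 3.21 CPM against 8.82, 9.44 and 8.68 CPM (log2 -1.31, SE 0.13, adjusted p = 7.7e-09). Igfbp4 fell by 0.63, Igfbp7 by 0.53 and Igf1 itself by 0.32. Sfrp2, Rspo3, Id3, Smad6, Bmp4, Cyr61, Ctgf, Col1a1, Fbn1, Postn, Fbln2, Myc and Ccnd1 were picked after their values were seen.

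Genes of amino acid supply and the Atf4 stress response were mostly lower. Atf4 binds composite elements, and promoters of this list were searched for TGATGNAA on both strands in the same 250 bases. Of 19 list members, 18 had a promoter in the table, and 4 held the motif, Asns, Chac1, Herpud1 and Slc7a11. The AP-1 motif was found in Ddit3 and Hspa5 of this list. TGATGNAA occurred in 3.45% of all promoters in the table. Only 74.1% of the tested genes had a promoter there, so a comparison with the tested genes is void. Asns (150 bases, minus strand, motif at -23) lies at chr6:7693210-7693359, and Chac1 (250 bases, plus strand, motif at -193) at chr2:119350992-119351241; they are shown as the members named here that hold the motif, in capitals, on either strand.
Asns: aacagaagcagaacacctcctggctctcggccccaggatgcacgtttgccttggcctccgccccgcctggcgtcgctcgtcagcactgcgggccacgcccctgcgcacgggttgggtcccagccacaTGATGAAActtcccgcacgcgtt
Chac1: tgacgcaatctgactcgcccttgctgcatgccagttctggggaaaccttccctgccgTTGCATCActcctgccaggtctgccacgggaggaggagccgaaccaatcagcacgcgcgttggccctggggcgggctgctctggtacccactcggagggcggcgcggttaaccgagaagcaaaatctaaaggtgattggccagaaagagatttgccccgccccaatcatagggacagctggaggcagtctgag

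Of the 19 unfolded protein and Atf4 response genes, 13 fell, 1 rose and 5 did not pass (median log2 -0.22). The share of changed genes was 73.7% against 30.1% over all genes. Asns, asparagine synthetase, stood at 280, 284 and 288 CPM with siCop1 and 405, 420 and 423 CPM with siCTRL (log2 -0.55, SE 0.03, adjusted p = 3.6e-16). The serine synthesis enzymes Phgdh and Psat1 fell by 0.52 and 0.40. Chac1, a glutathione-degrading enzyme, fell by 0.34, Ddit3 by 0.36 and Atf4 itself from 663 ± 23.2 to 553 ± 5.27 CPM (SD, n = 3). Chac1, Ddit3 and Atf4 were picked after their values were seen.

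Growth arrest and proliferation genes that passed were mostly lower. Of 19 p53 targets, 9 fell, 2 rose and 8 did not pass, and 7 changed without siCop1 replicate 2. With all libraries, 57.9% of these targets changed against 30.1% over all genes. Cdkn1a, the cell cycle inhibitor p21, stood at 104, 110 and 110 CPM against 151, 148 and 158 CPM (log2 -0.50, SE 0.04), Perp fell by 0.50 and Gdf15 by 0.83. Of 30 replication and mitosis genes, 14 fell, 1 rose and 15 did not pass, and 9 changed without siCTRL replicate 3. With all libraries, 50% of these genes changed against 30.1% over all genes. The replicative helicase subunits Mcm4 and Mcm5 fell by 0.39 and 0.33, and the kinase Plk1 and the cyclin Ccne1 by 0.27 each. Pmaip1, a p53-induced death factor, fell by 0.37 and lost its call when any library but siCTRL replicate 2 was left out (adjusted p 0.053 to 0.18).

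Clock transcripts moved little. Of 24 clock genes, 3 rose, 4 fell and 17 did not pass (median log2 -0.02), so the 29.2% that changed lay near the 30.1% over all genes. Cry1, one of the proteins KL001 stabilises, stood at 8.59, 9.21 and 9.62 CPM with siCop1 and 10.1, 10.1 and 9.88 CPM with siCTRL (log2 -0.14, SE 0.07, adjusted p = 0.18). The clock repressor Nr1d1 (log2 0.05, SE 0.05, adjusted p = 0.48) did not pass. Ciart, a clock-driven repressor, fell by 0.41, and Csnk1e, a kinase of the Per proteins, rose by 0.23. Per2 fell by 0.23, and its adjusted p of 0.031 became 0.051 to 0.19 without siCop1 replicate 1 or 2 or siCTRL replicate 1 or 3. Rorb, under 1 CPM, rose by 1.35 and lost its call without siCop1 replicate 1 or 2 or siCTRL replicate 3 (adjusted p 0.057 to 0.085).

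Glucocorticoid-responsive genes were mostly lower where they passed. Of 22 such genes, 10 fell, 1 rose and 11 did not pass (median log2 -0.10). The share of changed genes was 50% against 30.1% over all genes. Fkbp5, a chaperone of the glucocorticoid receptor, stood at 596, 603 and 594 CPM with siCop1 and 715, 699 and 695 CPM with siCTRL (log2 -0.23, SE 0.03, adjusted p = 2.7e-07). Klf15 fell from 18.0, 16.3 and 16.4 CPM to 9.28, 9.91 and 9.72 CPM (log2 -0.81). Hif3a, at a low mean of 1.26 CPM with siCop1 and 3.25 CPM with siCTRL, fell by 1.35 (SE 0.20). Ddit4, an inhibitor of mTOR signalling, fell by 0.29 and Mt2 by 0.28, with the close copy Mt1 as a reservation for the last. Tsc22d3, the gene of GILZ, stood at 512, 523 and 511 CPM against 558, 528 and 522 CPM and did not pass (log2 -0.06, SE 0.03, adjusted p = 0.13). Per1 did not pass either (log2 -0.01, adjusted p = 0.79).

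Inflammatory genes were divided. Of 21 interferon-stimulated genes tested, 6 rose, 0 fell and 15 did not pass. The share of changed genes was 28.6% against 30.1% over all genes and, for rises alone, 13.7%. Ifit3 rose by 0.42, Irf9 and Bst2 by 0.25 each and Ddx58 by 0.26, with an adjusted p of 0.050 for Ddx58 without siCop1 replicate 3. Ifit3 has close copies. Of 20 chemokine, cytokine and NF-kB genes, 6 rose, 7 fell and 7 did not pass, and 8 in all changed when any siCop1 library or siCTRL replicate 3 was left out. With all libraries, 65% of this list changed against 30.1% over all genes. Il1rl1, the receptor of the alarmin Il33, stood at 230, 242 and 233 CPM against 119, 123 and 136 CPM (log2 0.90, SE 0.05, adjusted p = 4.4e-15). Il33 rose by 1.20 (SE 0.33), at low means of 1.41 CPM with siCop1 and 0.609 CPM with siCTRL. Its adjusted p was 0.078 without siCop1 replicate 1. Lif fell by 0.64.

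Lipid synthesis genes changed in both directions, and most ribosomal and respiratory genes did not pass. Of 25 sterol and fatty acid genes, 9 rose, 6 fell and 10 did not pass, so that 60% changed against 30.1% over all genes. Fasn, fatty acid synthase, stood at 622, 599 and 632 CPM against 512, 508 and 478 CPM (log2 0.31), whereas Insig1, which retains the SREBP activator, fell by 0.50 and Dhcr7 by 0.26. Of 76 cytosolic ribosomal protein genes, 16 fell, 0 rose and 60 did not pass, a share of changed genes of 21.1% against 30.1% over all genes and, for falls alone, 16.3%. The count was 29 in a fit of only the compared groups and 9 without siCTRL replicate 3. Rpl10a fell by 0.29, and reads of ribosomal protein genes can be shared with processed copies. Of 76 nuclear respiratory chain genes, 6 rose, 4 fell and 66 did not pass, so that 13.2% changed against 30.1% over all genes. Sdhd, a subunit of succinate dehydrogenase, stood at 115, 124 and 120 CPM against 92.3, 88.5 and 98.7 CPM (log2 0.36). The respiratory count was 17 in a fit of only the compared groups and 6 without siCop1 replicate 1 or 2 or siCTRL replicate 3.

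**Figure D3:**
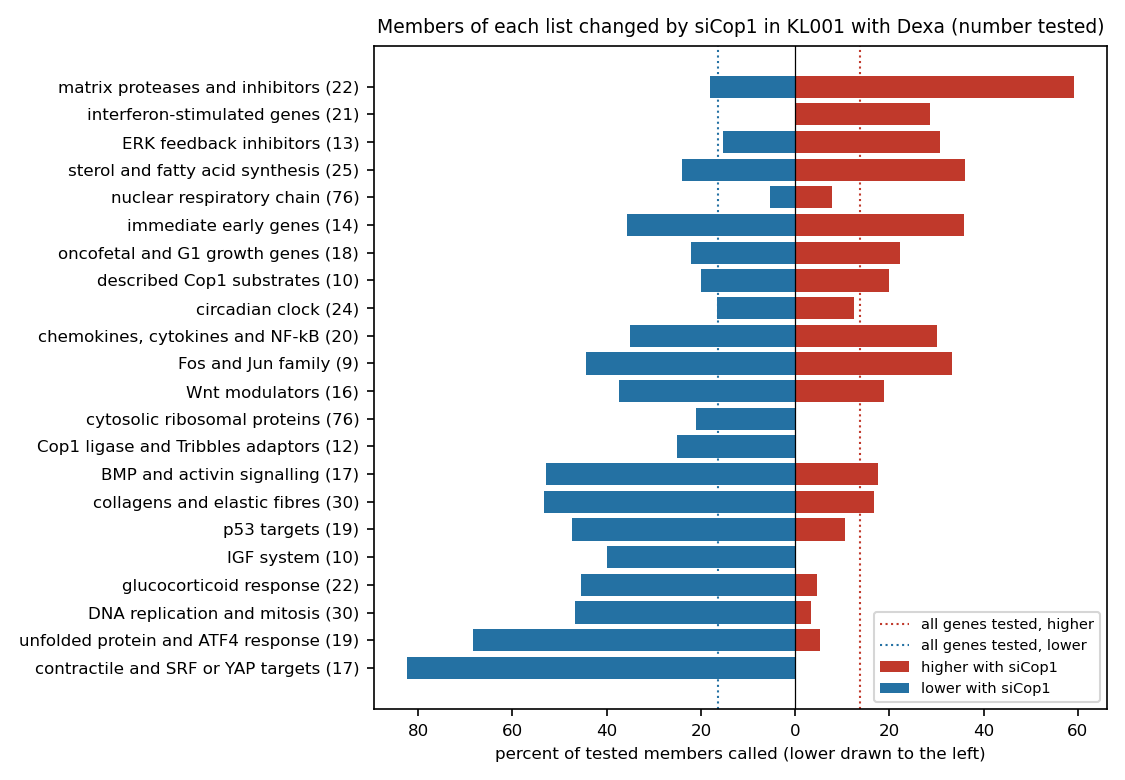
Percent of tested members of each gene list that were higher (red, to the right) or lower (blue, to the left) with siCop1 in KL001 with Dexa, with the number tested after each name. Dotted lines give the shares over all genes tested, 13.7% higher and 16.3% lower, and contractile genes lie farthest to the lower side with 14 of 17.

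The effect of siCop1 was then set beside its effect in the other settings, which used separate libraries of both siRNAs. With Dexa in DMSO, 4599 genes changed (31.1%), and 3220 changed in both, 72.5% of the genes changed in KL001 with Dexa and 70.0% of those in DMSO with Dexa. The direction was shared by 3218 of the 3220. Without Dexa, 4835 genes changed in KL001 (32.7%) and 4342 in DMSO (29.4%), of which 3286 and 2968 also changed in KL001 with Dexa. In all 4 settings 2413 genes changed, 997 of them always higher and 1410 always lower. Spearman's rho of the log2 changes across the 14772 genes was 0.70 against DMSO with Dexa, 0.67 against KL001 without Dexa and 0.62 against DMSO without Dexa, as a description across genes that are not independent replicates. Rfwd2 fell by 2.53 here and by 2.48, 2.43 and 2.56 in DMSO with Dexa, KL001 without Dexa and DMSO without Dexa.

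**Figure D4:**
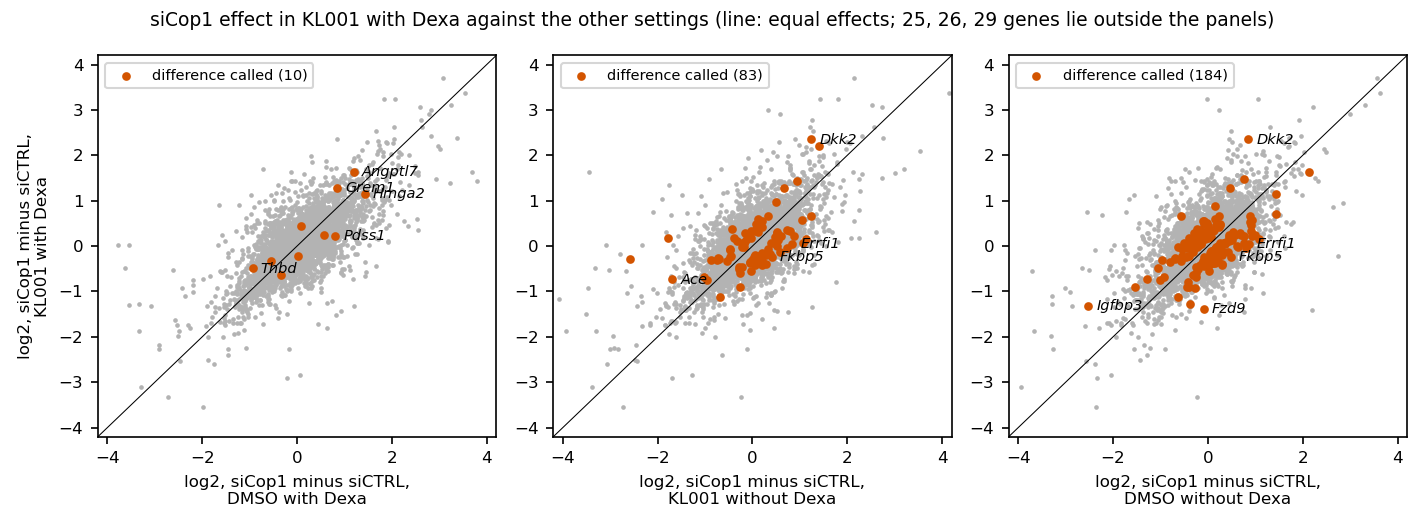
Log2 effect of siCop1 in KL001 with Dexa (y axis) against its log2 effect in DMSO with Dexa, KL001 without Dexa and DMSO without Dexa (x axes), 1 point per gene, with the line of equal effects. Orange points are the 10, 83 and 184 genes whose difference between the 2 effects passed the test, and 25, 26 and 29 genes lie outside the panels.

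Differences between the effects were tested directly as interaction terms in the same fit. The 3 differences share the 6 libraries of KL001 with Dexa and are therefore not independent of each other. Between KL001 and DMSO, both with Dexa, the effect differed for 10 of 14772 genes (0.0677%). DESeq2 gave 24 such genes and a fit without the filter on low counts 59, the 10 among them in both, and leaving out single libraries gave 2 to 8. Grem1 and Hmga2 passed in every leave-out. Grem1 rose from 58.0 ± 3.15 to 103 ± 4.28 CPM in DMSO with Dexa and from 44.2 ± 1.93 to 108 ± 2.43 CPM in KL001 with Dexa (SD, n = 3), a difference in log2 change of 0.46 (SE 0.07, adjusted p = 0.0038). Hmga2 rose by 1.43 in DMSO and 1.15 in KL001, a difference of -0.27 (SE 0.04, adjusted p = 0.0038). The other 8 genes were Ccdc80, Ccnd1, Zfp36l1, Thbd, Angptl7, Sned1, Cacna1h and Pdss1, and each lost its call when at least 1 library was left out. Ccnd1 had a log2 change of 0.03 in DMSO with Dexa and -0.22 in KL001 with Dexa, and Zfp36l1, which promotes mRNA decay, 0.07 and 0.44. The direction of change was the same in both compounds for the 8 of the 10 genes that passed in both.

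Within KL001, the effect with Dexa differed from that without Dexa for 83 genes (0.562%), 39 with a higher and 44 with a lower term, and for 43 genes without siCop1 replicate 2. Of the 83, 44 changed in both settings, and 10 of these in opposite directions. Among all 3286 genes changed in both settings, 12 went in opposite directions. The 83 genes were selected for unlike effects. Dkk2 rose from 29.4 ± 2.85 to 69.9 ± 0.809 CPM without Dexa and from 15.3 ± 0.882 to 78.1 ± 6.46 CPM with Dexa (SD, n = 3), a difference of 1.11 (SE 0.09, adjusted p = 1.9e-09). Between KL001 and DMSO, both with Dexa, the difference for Dkk2 did not pass. Ace, angiotensin-converting enzyme, fell by 1.69 without Dexa and by 0.73 with it, a difference of 0.96. Nptx1 rose by 1.4 without Dexa and 2.19 with it.

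Errfi1, a feedback inhibitor of EGF receptors, rose from 28.3 ± 2.50 to 50.4 ± 0.713 CPM in KL001 without Dexa and stood at 238 ± 5.72 and 245 ± 2.92 CPM with Dexa (SD, n = 3), where it did not pass (log2 0.04, adjusted p = 0.38). The difference was -0.79 (SE 0.06, adjusted p = 7.5e-10). Klf5, a growth-associated zinc finger factor, rose by 0.73 without Dexa and had a log2 change of -0.04 with it. Ccbe1, needed for lymphatic growth, rose by 1.07 without Dexa and had a log2 change of 0.07 with it. Fkbp5 turned direction: siCop1 raised it from 35.1 ± 1.89 to 46.5 ± 1.90 CPM in KL001 without Dexa and lowered it from 703 ± 10.4 to 597 ± 4.97 CPM with Dexa (SD, n = 3), a difference of -0.64 (SE 0.05, adjusted p = 1e-09). Fst, the activin antagonist follistatin, likewise rose by 0.28 without Dexa and fell by 0.39 with it. Fkbp5 and Fst were picked for this comparison after their values were seen.

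Between KL001 with Dexa and DMSO without Dexa, the effect differed for 184 genes (1.25%), and for 118 without siCTRL replicate 3. Both compound and Dexa differ in this contrast and cannot be told apart in it. Dkk2 rose by 0.86 in DMSO without Dexa against 2.35, a difference of 1.49 (SE 0.08, adjusted p = 1.1e-12). Igfbp3 fell from 22.2 ± 1.08 to 3.86 ± 0.743 CPM in DMSO without Dexa and from 8.98 ± 0.402 to 3.60 ± 0.343 CPM in KL001 with Dexa (SD, n = 3), a difference of 1.21 (SE 0.18, adjusted p = 0.00029). The siCTRL means of Igfbp3 thus lay farther apart between the settings than the siCop1 means, which was not tested.

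**Figure D5:**
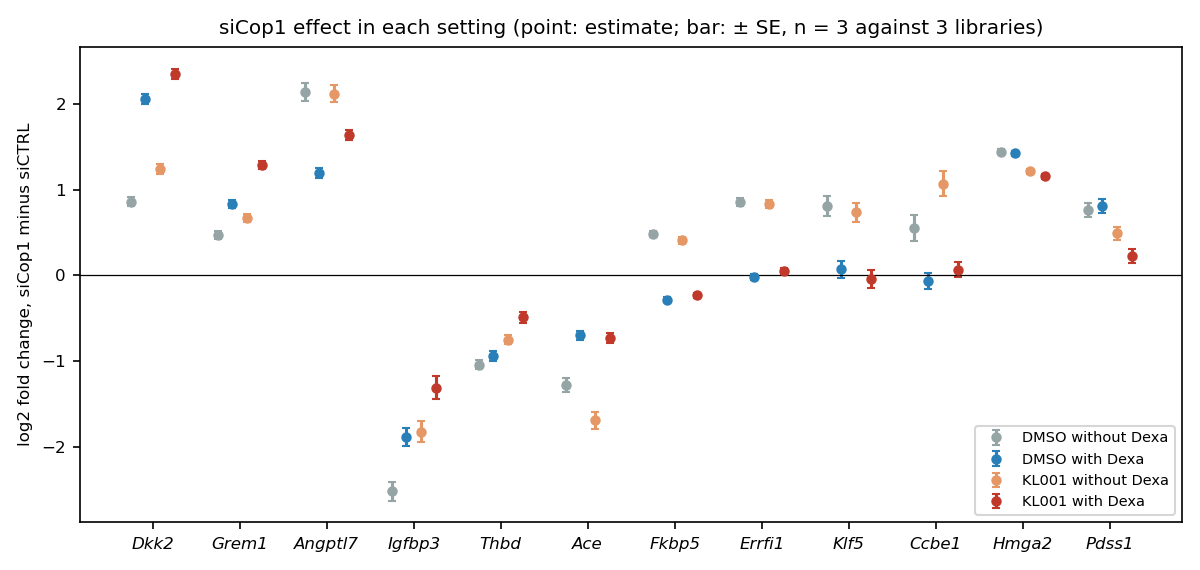
Log2 effect of siCop1 on 12 genes in each setting (y axis), shown as the estimate ± SE from 3 against 3 libraries. Dkk2 and Grem1 have their highest estimate in KL001 with Dexa (red). The difference from DMSO with Dexa passed its test for Grem1 and did not pass for Dkk2. Errfi1, Klf5 and Ccbe1 lie near 0 with Dexa, and Fkbp5 is above 0 without Dexa and below 0 with it.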

How the data were processed

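mRNA of wild-type mouse embryonic fibroblasts was sequenced from stranded TruSeq libraries as single reads, pooled on 3 lanes, per the labels' protocols. The labels name no lane or batch per library. The authors deposited raw read counts for 47480 gene symbols. The submitters' processing notes name STAR 2.4.5a, featureCounts, Subread 1.4.6-p3, DESeq2, Picard 1.126, bcl2fastq 1.8.4 and the builds GRCm38 and mm10, without role or order. The sources used here do not give the strand setting or the treatment of shared reads. A deposited normalized table was not used here. 0 columns of counts were left unused.

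Counts were analysed in R 4.3.3. The 14772 genes that passed filterByExpr, run on the 8 groups with a count minimum of 10 and a total minimum of 15, were scaled by TMM and fitted with edgeR 4.0.16 (limma 3.58.1; robust quasi-likelihood, 1 mean per group, all 24 libraries, so that all groups share the spread; common biological coefficient of variation 3.71%). Tests were two-sided at a Benjamini-Hochberg adjusted p below 0.05. Standard errors are the unshrunken log2 change over the square root of F. The procedure was tested on simulated data. Replicates differed by more than counting noise (chi-square per degree of freedom 1.92 to 2.82), so none was a duplicate. PCR copies were not told apart, and intervals from counts cover counting error only. Levels far under 1 CPM come from few reads.

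Named genes were Rfwd2 and 9 fixed genes of the Cop1, clock and glucocorticoid pathways; the 10 largest changes each way among called genes with a mean of at least 1 CPM and groups that do not overlap; per difference up to 3 called genes of each sign with a mean of at least 1 CPM; and up to 4 called genes of each list with the largest change. Predicted genes (Gm numbers), Rik clones and -ps pseudogenes were skipped among the largest changes and differences. The comparison and the lists were chosen with earlier results of these data known. Genes said to be picked after their values were seen fall outside this rule, and a gene within it is not reported here. The analysis was repeated with the replicate number as a blocking term, with DESeq2 1.42.0, with RLE scaling, without the filter, on the compared groups alone, and without each of the 6 libraries in turn. Promoters were matched by symbol or a unique synonym (10952 of 14772 genes).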

Additional observations from a re-analysis of the deposited data

Results flagged for a closer look

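The effect of siCop1 in KL001 with Dexa differed from its effect in another setting, by the interaction test in edgeR, for 10 genes against DMSO with Dexa, 83 genes against KL001 without Dexa and 184 genes against DMSO without Dexa. The terms below are differences in log2 change, KL001 with Dexa minus the other setting, with 3 libraries in each group.

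Against DMSO with Dexa, the named terms were 0.46 for Grem1, 0.45 for Thbd, 0.44 for Angptl7, -0.58 for Pdss1, -0.34 for Sned1 and -0.29 for Cacna1h. Thbd, thrombomodulin, fell by 0.94 in DMSO and 0.49 in KL001 with Dexa. Angptl7, a secreted angiopoietin-like protein, rose by 1.20 and 1.64. The adjusted p-values of Thbd, Angptl7, Pdss1, Sned1 and Cacna1h were 0.038, 0.041, 0.041, 0.038 and 0.038, and leaving out single libraries moved them to 0.067 to 0.22 in the leave-outs in which they did not pass. Pdss1, which makes the side chain of coenzyme Q, also lost its own change in KL001 with Dexa (log2 0.23, adjusted p 0.039) without siCop1 replicate 1 or 2 or siCTRL replicate 1 or 2 (adjusted p 0.075 to 0.23).

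Against KL001 without Dexa, the named terms were 1.11 for Dkk2, 0.96 for Ace, 0.79 for Nptx1, -1.0 for Ccbe1, -0.79 for Errfi1 and -0.78 for Klf5, and all 6 kept their call under each alternative.

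Against DMSO without Dexa, the named terms were 1.49 for Dkk2, 1.21 for Igfbp3, 0.82 for Grem1, -1.29 for Fzd9, -0.88 for Rprm and -0.85 for Klf5. Fzd9, a Wnt receptor, had a log2 change of -0.09 in DMSO without Dexa and -1.38 in KL001 with Dexa. Its term had an adjusted p of 0.038, which became 0.067 to 0.11 without siCop1 replicate 2 or 3 or siCTRL replicate 1 or 3. Rprm, a p53-induced cell cycle inhibitor, fell by 0.39 and 1.27, and its term (adjusted p 0.020) did not pass without siCop1 replicate 1 or siCTRL replicate 2 (0.077 and 0.057).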

How the results depend on the processing

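The count of 4441 changed genes was 4400 with RLE scaling, 4331 without a filter on low counts, 3956 with DESeq2, 4378 with the replicate block, 5208 in a fit of only the compared groups and 3619 to 3871 when single libraries were left out, and 43.3% to 48.1% of the changed genes were higher. The 10 genes whose effect differed between KL001 and DMSO with Dexa became 59 without a filter, 24 with DESeq2, 5 with the replicate block and 2 to 8 when single libraries were left out. The 83 genes whose effect differed with and without Dexa in KL001 became 156 without a filter, 52 in a fit of only the compared groups and 43 to 64 when single libraries were left out. The 184 genes against DMSO without Dexa became 291 in a fit of only the compared groups and 118 to 170 when single libraries were left out. The cause of these shifts was not tested. Whether same-numbered replicates of the 2 groups belong together is not known. The correlations of their deviations were 0.19, -0.005 and 0.005, against -0.21 to 0.18 for unlike numbers, and do not settle it. The block did not move any other of these counts by over 1.5 times. Of 169 called results for single named genes, 31 lost the call under at least 1 alternative and 0 reversed. Scaling moved the median log2 change of all genes by less than 0.01. Depth limits statements on genes well below 1 CPM, such as Mmp10 and Mmp13.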

Other observations

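A few transcripts outside the named groups were examined from the marker lists after their values were seen. Fabp4, a fatty acid carrier of adipocytes and macrophages, stood at 78.6, 81.0 and 79.3 CPM with siCop1 and 52.2, 53 and 54.9 CPM with siCTRL (log2 0.58, SE 0.06, adjusted p = 1.8e-09). Without Fabp4 the other 5 adipocyte markers summed to 9.45 to 9.79 CPM in the siCop1 libraries, against 11.2 to 11.6 CPM in the siCTRL libraries, with Plin1 at 0. Pparg, the adipocyte transcription factor that makes up most of this sum, fell by 0.22 (adjusted p = 0.034). C3ar1, a receptor of complement fragment C3a, stood at 4.27, 4.06 and 4.56 CPM against 1.24, 1.01 and 0.658 CPM (log2 2.14, adjusted p = 1.2e-11), and it also rose in DMSO with Dexa (log2 3.03), KL001 without Dexa (1.97) and DMSO without Dexa (2.44). Cd68, a lysosomal protein of macrophages, rose by 0.61. Ddx4, a helicase of germ cells, stood at 0.431, 0.464 and 0.325 CPM against 1.68, 1.58 and 1.48 CPM (log2 -1.93, adjusted p = 9.4e-06). The other 4 germ cell markers summed to at most 0.0387 CPM in a siCop1 library and 0.0878 CPM in a siCTRL library, with Mael at 0.

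By threshold alone, 555 genes changed in KL001 with Dexa and in none of the other 3 settings. The difference from at least 1 other setting, however, passed its own test for only 10 of them. It passed for 156 of the 4441 changed genes and for 216 of all 14772 genes tested. The median absolute log2 change of these 555 genes was 0.20.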
